A study of Mus musculus with 34 samples.

Results

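The 10 genes described here encode glutathione S-transferases and were taken, by symbol, from the 23951 genes listed in every expression file. They were chosen by measured hippocampal expression, because Gstt3 was lower in 5XFAD and Gstm2 was lower in Hdac1 cKO, so these contrasts, and the others against the same control mice, are given below as descriptions with no test. RNA-seq of 27 of 34 samples was analysed, all from mice aged 13 months (13 to 14 months for the first control and Hdac1 cKO hippocampi), which the methods describe as male. Hippocampal RNA came from 4 control mice (Hdac1f/f), 5 Hdac1 cKO mice (Hdac1f/f, Nestin-Cre), 6 5XFAD mice (Hdac1f/f, 5XFAD) and 5 mice of the compound genotype (Hdac1 cKO; 5XFAD). Nuclei sorted for GFAP from cortex gave 3 control and 4 Hdac1 cKO libraries, and the other samples, 6 of them ChIP-seq, were not analysed here. Every mouse carried the floxed Hdac1 allele. Nestin-Cre drives deletion in neurons and astrocytes and leaves microglia with HDAC1, and the control mice lacked Cre, so the presence of Cre and the loss of Hdac1 cannot be told apart. 5XFAD mice are an amyloid model of Alzheimer's disease whose transgenes are driven by the neuronal Thy1 promoter.

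Glutathione S-transferases join the tripeptide glutathione to reactive, electrophilic molecules, among them the aldehydes that form when membrane lipids are oxidized, and the conjugates are then exported from the cell. The cytosolic enzymes fall into classes named by Greek letters, with genes of one class often lying side by side: Gstm1, Gstm2 and Gstm5 are of the mu class, Gstt1, Gstt2 and Gstt3 of theta, Gstp1 of pi, Gsta4 of alpha and Gsto1 of omega. Mgst1 belongs to an unrelated family of membrane-bound enzymes that share the reaction. In brain, mu class enzymes are known mainly from astrocytes and other glia, and the epithelium of the choroid plexus, which separates blood from cerebrospinal fluid, is also rich in conjugating enzymes. Many genes of the family are known targets of NRF2, a transcription factor that binds the antioxidant response element.

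The genotypes were first checked on marker genes. Hdac1 read 2.36 to 3.03 FPKM in Hdac1 cKO and 1.15 to 2.52 in compound hippocampus, below the 5.91 to 10.7 of controls and 6.10 to 9.64 of 5XFAD. In nuclei the Hdac1 ranges overlapped, at 9.91 to 22.3 FPKM in controls and 5.80 to 11.5 in Hdac1 cKO. Thy1 was between 1563 and 2357 FPKM in the mice labelled as carrying 5XFAD and at most 388 in the other hippocampi. All 9 astrocyte markers were detected in the sorted nuclei, summing to 2959 to 3642 FPKM against 979 to 1328 in hippocampus, while the 8 neuron markers summed to 191 to 271 against 1418 to 1762. The nuclei also held markers of other cells: the 7 oligodendrocyte markers summed to 652, 1270 and 888 FPKM in the 3 control libraries and to 457, 572, 1167 and 1152 in Hdac1 cKO replicates 1 to 4, against 1051 to 1967 in hippocampus, and the 4 mural cell markers to 110 to 152 against 12.8 to 19.7. Hdac1 cKO replicates 1 and 2 were also the lowest for microglia (58.5 and 56.5 FPKM, against 86.6 to 173 in the other nuclei). Choroid plexus tissue was present to very different degrees: its 10 markers summed to 663, 18436, 21415 and 13758 FPKM in controls 1 to 4, to 101 to 1713 in Hdac1 cKO, to 97.5 to 8344 in 5XFAD, and in the compound mice to 14468 in mouse 1 but 100.2 to 329 in the other mice. The 10 microglia markers summed to 243 to 334 FPKM in control and Hdac1 cKO mice and to 609 to 1330 in the mice with 5XFAD. In tissue libraries such as these, fewer cells of a type and less RNA per cell cannot be told apart.

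The mu genes lie together on chromosome 3 and the theta genes on chromosome 10. In the mouse genome build mm9 (NCBIM37), Gstm5 (ENSMUSG00000004032) occupies chr3:107698739-107701604 on the plus strand, Gstm2 (ENSMUSG00000040562) chr3:107784620-107789371 and Gstm1 (ENSMUSG00000058135) chr3:107815173-107820891, both on the minus strand. Gstt3 (ENSMUSG00000001665) is at chr10:75236860-75244159, Gstt1 (ENSMUSG00000001663) at chr10:75246558-75261329 and Gstt2 (ENSMUSG00000033318) at chr10:75294590-75297626, all on the minus strand. Gstp1 is at chr19:4035411-4037921, Gsto1 at chr19:47929460-47939280, Gsta4 at chr9:78039773-78057155 and Mgst1 at chr6:138088837-138105276. Gstm5 overlaps 4933431E20Rik, a non-coding gene on the other strand, and Gsto1 overlaps Wdr96. Whether the counting used strand is not given in the sources used here, so reads of these pairs may not be separated. Gstt3 overlaps RP23-333M15.8, a protein-coding gene on the same strand that is not among the listed genes, and strand would not separate their reads. The promoters below run from 250 bases before to 50 bases after the start of each gene's longest coding transcript, 5′ to 3′ on the gene's own strand: those of Gstm2 and Gstt3, the genes that defined the choice, of Gstm5, their most abundant relative, and of Mgst1, which passed the thresholds used below in both tested hippocampal comparisons and not in nuclei. Capitals mark matches, on either strand, to the antioxidant response element core TGACNNNGC and to the GC box GGGCGG, which binds SP factors. They cover chr3:107789322-107789621 (Gstm2), chr3:107698514-107698813 (Gstm5), chr10:75244110-75244409 (Gstt3) and chr6:138088587-138088886 (Mgst1).
Gstm2: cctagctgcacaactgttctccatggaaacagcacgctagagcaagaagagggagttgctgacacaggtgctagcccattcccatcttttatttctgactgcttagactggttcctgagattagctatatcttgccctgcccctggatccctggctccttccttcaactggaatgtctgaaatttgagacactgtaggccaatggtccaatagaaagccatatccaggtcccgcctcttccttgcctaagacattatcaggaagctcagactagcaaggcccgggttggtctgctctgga
Gstm5: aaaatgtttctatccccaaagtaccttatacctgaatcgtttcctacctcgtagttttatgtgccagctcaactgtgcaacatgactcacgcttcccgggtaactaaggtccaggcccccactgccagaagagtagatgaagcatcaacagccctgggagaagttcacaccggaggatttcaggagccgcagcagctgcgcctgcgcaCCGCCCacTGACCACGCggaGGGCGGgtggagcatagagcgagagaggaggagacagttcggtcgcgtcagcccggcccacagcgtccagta
Gstt3: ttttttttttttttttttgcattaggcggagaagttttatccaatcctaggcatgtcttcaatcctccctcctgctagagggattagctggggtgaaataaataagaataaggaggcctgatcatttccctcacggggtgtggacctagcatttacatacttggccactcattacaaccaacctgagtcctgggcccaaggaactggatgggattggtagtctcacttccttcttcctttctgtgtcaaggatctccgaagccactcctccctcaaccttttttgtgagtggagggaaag
Mgst1: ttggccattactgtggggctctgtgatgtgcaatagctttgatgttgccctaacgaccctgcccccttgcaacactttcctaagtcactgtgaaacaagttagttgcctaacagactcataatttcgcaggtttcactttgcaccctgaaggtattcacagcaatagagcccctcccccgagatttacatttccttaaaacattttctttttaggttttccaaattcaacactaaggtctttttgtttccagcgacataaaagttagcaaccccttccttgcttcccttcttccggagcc

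Of the 10 promoters, only that of Gstm5 held the antioxidant response element letters, starting at position -34 from the start site, while 12.6% of 19349 coding gene promoters of the same length held them. It also held GC boxes on each side of that match, at -42 and -22. GC box letters stood in the promoters of Gstm5, Gstp1, Gsta4 and Gsto1, 4 of 10, beside 47.7% of all promoters, and neither motif was found in the Gstm2, Gstt3 or Mgst1 window. A match describes letters only, and its absence says nothing of the factor.

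The 10 genes spanned over 2 orders of magnitude in control hippocampus. On the FPKM scale, fragments scaled to transcript length and library size, Gstm5 averaged 672 ± 35.5 (SD, n = 4) and Gstm1 432 ± 39.7, which placed both at or above the 98.8th percentile of listed genes. Gsta4, which favours lipid aldehydes as substrates, followed at 136 ± 16.7 FPKM, and Gstp1 at 97.0 ± 7.01. Gsto1 (46.5 ± 4.39) and Mgst1 (39.7 ± 11.2) overlapped in range, as did Gstt1 (19.4 ± 3.91) and Gstm2 (10.6 ± 4.27), and also Gstt3 (3.58 ± 0.802) and Gstt2 (3.40 ± 1.96). All other neighbours in the order did not overlap. The hippocampal libraries read only transcript ends, whereas FPKM divide by the whole length. On the scale of FPKM multiplied by transcript length, the control order was the same and Gstm2 and Gstt3 overlapped as well.

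Control GFAP+ nuclei had another order. Gstm1 (324 ± 64.7 FPKM, n = 3) and Gstm5 (261 ± 73.5) overlapped at the top, Mgst1 came next at 60.4 ± 16.9, and Gstm2 was lowest at 2.40 ± 1.03. Gstt2 (13.5 ± 3.38) and Gstt3 (7.25 ± 0.535) were placed at the 76.6th and 65.3rd percentile of genes, against the 60.5th and 61.3rd in control hippocampus. The nuclei differ from the hippocampi in region, compartment and library kit, which cannot be told apart, so no test was made between them.

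**Figure D1:**
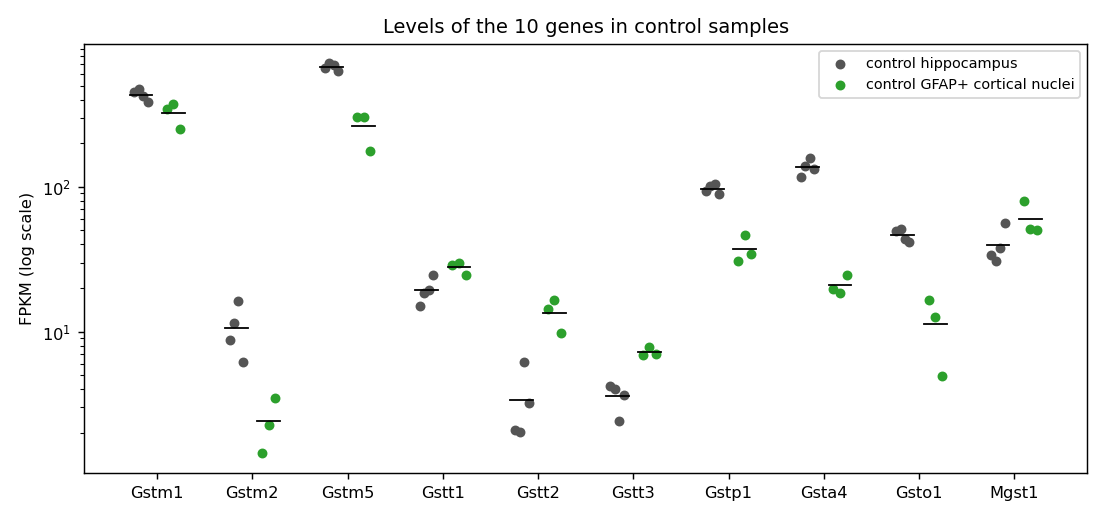
Level of each gene (FPKM, log axis) in 4 control hippocampi (grey) and 3 control GFAP+ cortical nuclei libraries (green), with a line at each mean. Gstm5 and Gstm1 are the highest in both, and Gstm2 is the lowest in nuclei at 1.44 to 3.49 FPKM.

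Gstm2, a mu class enzyme, was the member farthest from control in each of the 3 hippocampal contrasts against control. Its level was 8.72, 11.4, 16.2 and 6.19 FPKM in controls 1 to 4. The 5 Hdac1 cKO mice read 6.28, 4.53, 2.03, 3.89 and 2.16 FPKM. The highest of these just overlapped the lowest control, and all 5 lay below the control mean. In the 6 5XFAD mice Gstm2 read 3.63, 5.12, 1.35, 1.18, 3.92 and 7.22 FPKM, again with 1 mouse inside the control range and none above the control mean. The compound mice read 9.53, 3.87, 0, 3.25 and 0.894 FPKM. Compound mouse 1, the only one with abundant choroid plexus markers, had the highest value, and mouse 3 was listed at 0. On the scale of log2(FPKM + 1), the difference from control was -1.29 (SE 0.30) in Hdac1 cKO, -1.38 (SE 0.39) in 5XFAD and -1.73 (SE 0.65) in compound mice, contrasts that share the 4 control mice.

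With the choroid plexus score of each mouse (the mean log2 level of the 10 markers) as a covariate, the Gstm2 difference was -1.23 (SE 0.58) in Hdac1 cKO, -1.15 (SE 0.43) in 5XFAD and -0.65 (SE 0.72) in compound mice, so the SE of the first and the size of the last changed most. Leaving out control 1, the only control with few choroid plexus markers, gave -1.35, -1.44 and -1.79. Leaving out compound mouse 3 moved the compound difference to -1.29, and leaving out compound mouse 1 to -2.14. Within groups, the deviations of Gstm2 from the group mean and those of the score had a Pearson r of 0.45 over 20 mice, a description in which both measures come from the same libraries. For the other members r ran from -0.25 (Gstm1) to 0.60 (Gsta4), with 0.42 for Gstt1, 0.36 for Mgst1 and 0.29 for Gstt3. All 10 choroid plexus markers and all 5 ependyma markers passed the thresholds downward in Hdac1 cKO, with a median log2 difference of -3.03 and -0.98, and in compound mice 8 of 10 and 2 of 5 did, with medians of -2.62 and -0.82. In 5XFAD 0 of 10 choroid plexus markers (median -1.49) and 3 of 5 ependyma markers (median -0.72) passed downward. Of 5 fibroblast and meninges markers tested, 2 passed downward in Hdac1 cKO (median -0.32), 0 in 5XFAD (median -0.01) and 1 in compound mice (median -0.36). The part of these cells in the Gstm2 differences was not tested beyond the choroid plexus covariate.

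Gstt3, a theta class enzyme, read 4.22, 4.02, 2.43 and 3.63 FPKM in controls. The 5XFAD mice read 1.12, 1.48, 2.05, 1.08, 1.49 and 2.07 FPKM, all below the lowest control. Hdac1 cKO mice held an intermediate place at 2.56, 2.29, 2.97, 1.97 and 2.19 FPKM. Compound mice read 3.85, 2.84, 1.71, 2.62 and 2.71 FPKM, and each of them was above the 5XFAD mean of 1.55. The log2 difference from control was -0.85 (SE 0.18) in 5XFAD, -0.42 (SE 0.16) in Hdac1 cKO and -0.29 (SE 0.20) in compound mice. The difference of compound from 5XFAD mice was 0.55 (SE 0.17). The interaction of the 2 genotypes, the effect of Hdac1 loss on the 5XFAD background minus that on the control background, was estimated at 0.97 (SE 0.24) on the log2 scale. As it holds the contrasts that chose Gstt3, no p is given. With the choroid plexus score as a covariate the 5XFAD difference was -0.83 (SE 0.21), that of Hdac1 cKO from control -0.71 (SE 0.28) and that of compound from 5XFAD mice 0.69 (SE 0.17). The difference of compound from 5XFAD mice, under a fold of 1.5 as first given, was also above it with a pseudocount of 0.1 (0.79), as a ratio of mean FPKM (0.79), with a replicate block (0.61), and without 5XFAD mouse 3 (0.61) or 6 (0.61) or compound mouse 3 (0.66). In 5XFAD against control 8 of 10 microglia markers were past the thresholds upward (median 1.02), as was 1 of 9 astrocyte markers (median 0.08). Gfap differed by 1.90 (SE 0.12). The astrocyte score, the mean log2 level of its 9 markers, was 5.82 to 5.99 in 5XFAD and 5.64 to 5.75 in control mice. The part of these cells in the Gstt3 difference was not tested.

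**Figure D2:**
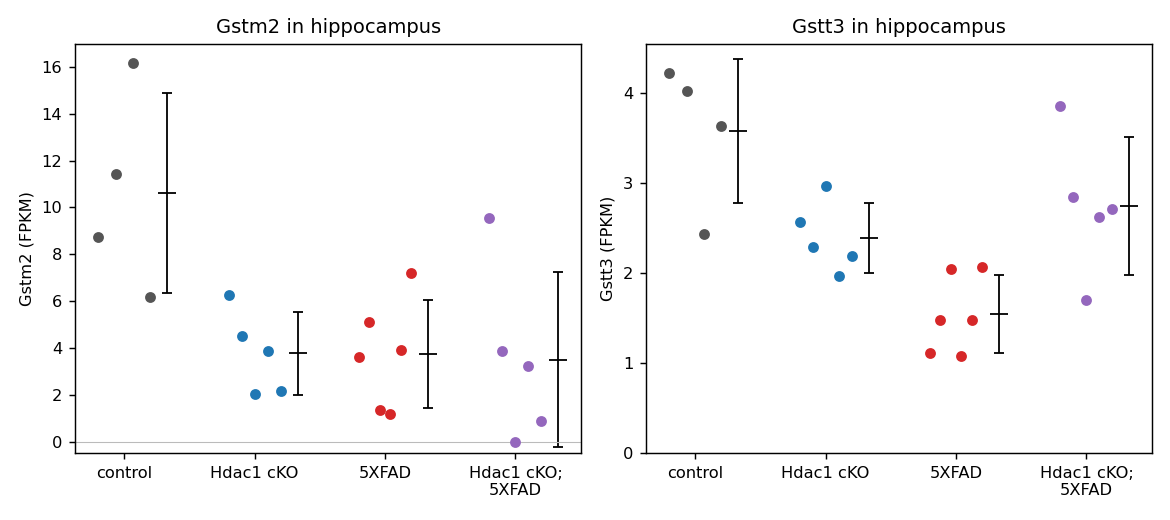
FPKM of Gstm2 (left) and Gstt3 (right) in each hippocampus of the 4 groups, with the group mean and SD beside the points. The 6 5XFAD mice lie between 1.08 and 2.07 FPKM for Gstt3, below every control, while Gstm2 overlaps the controls by 1 mouse in each mutant group.

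**Figure D3:**
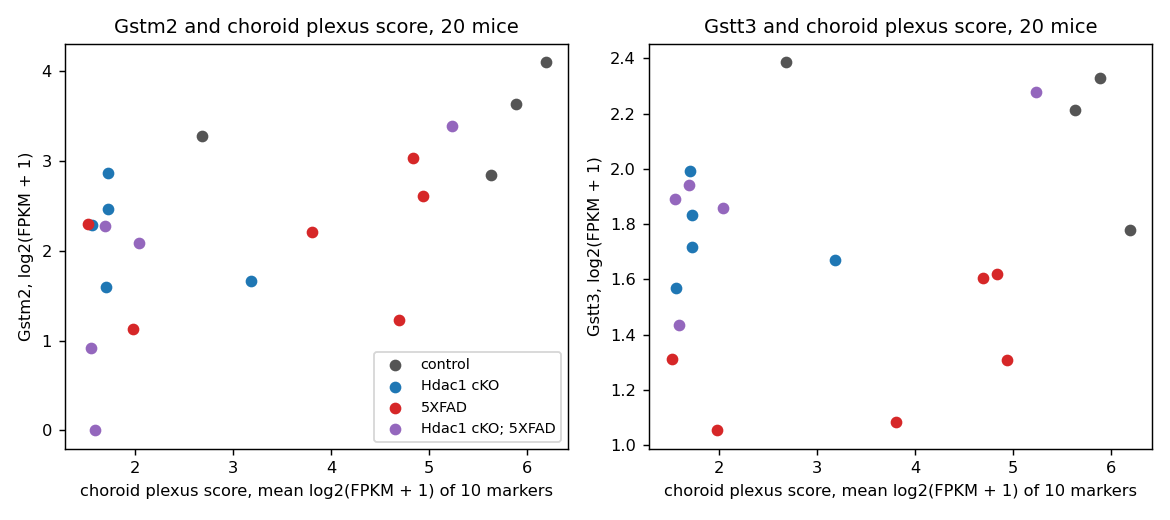
Gstm2 (left) and Gstt3 (right) as log2(FPKM + 1) against the choroid plexus score (mean log2 level of 10 markers) in 20 hippocampi, coloured by genotype. Compound mouse 1 has a score above 5 and the highest Gstm2 and Gstt3 of its group. Of the 6 5XFAD mice, 2 have a score below 2, with 1.08 and 1.49 FPKM of Gstt3, and the 2 highest in Gstt3 have scores above 4. Mouse 2 has the highest score of the 5XFAD group (4.93) with 1.48 FPKM, and mouse 1 a score of 3.81 with 1.12 FPKM.

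Few sequenced fragments stood behind both genes. FPKM of a gene moves in steps worth 1 fragment, and with the relative depth of the 20 hippocampal libraries read from the low values (0.754 to 2.35 times that of control 1), all 20 values of 8 members were whole multiples of one step within 0.15. Gstm1 and Gstm5 were too abundant for this. Gstm2 rested on 24, 69, 47 and 25 fragments in controls, on 10 to 26 in Hdac1 cKO mice, on 4 to 44 in 5XFAD and on 0 to 25 in compound mice. The 0 of compound mouse 3 allows, at 3 fragments, up to 1.45 FPKM. Summed over mice and divided by depth, Gstm2 gave 28.9 fragments in controls (exact Poisson 95% interval 24.6 to 33.6), 9.87 in Hdac1 cKO (7.93 to 12.1), 11.2 in 5XFAD (9.24 to 13.5) and 9.08 in compound mice (6.93 to 11.7). For Gstt3 the same quantity was 19.9 in controls (16.5 to 24.0), 12.9 in Hdac1 cKO (10.7 to 15.5), 8.42 in 5XFAD (6.72 to 10.4) and 15.0 in compound mice (12.2 to 18.2). These intervals cover counting error only, not the spread between mice. Gsta4, by contrast, rested on 211 to 777 fragments a mouse.

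The contrasts against control were counted in the same way for all members, as a description. Following the study, a gene counted as differentially expressed (DEG) if it changed 1.5-fold or more with p under 0.05 before adjustment, here in a limma fit over all genes averaging 0.5 FPKM or more, a filter that all 10 members passed in every comparison. In Hdac1 cKO 1 of 10 members was past both thresholds (Gstm2), beside 3.36% of 14265 genes, in 5XFAD 2 of 10 (Gstm2 and Gstt3), beside 2.95% of 14402, and in compound mice 1 of 10 (Gstm2), beside 4.24% of 14348. Since these contrasts chose the members, nothing is read from the counts. Gstm2 was no longer past the thresholds with the choroid plexus covariate in Hdac1 cKO and compound mice, nor in compound mice without control 1 (-1.79), 2 (-1.67) or 3 (-1.52) or without compound mouse 5 (-1.53), nor there with a replicate block (-1.53, SE 0.81). Other members came past the thresholds: with the covariate Gstt3 in Hdac1 cKO (-0.71) and Mgst1 in compound mice (0.60), so that both counts stayed at 1 with another gene, and without compound mouse 3 Gstt1 in compound mice (-0.61). At a Benjamini-Hochberg adjusted p under 0.05, limma called 0.154%, 0.708% and 0.662% of all genes in these contrasts. All 10 members were on the lower side in 5XFAD, with a median log2 difference of -0.28 beside -0.01 over all genes tested, and 8 of 10 were lower in Hdac1 cKO (median -0.13) and in compound mice (median -0.15).

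One 5XFAD library stood low. Mouse 1 had the lowest of 6 values for Gstm1, Gstm5, Gstt1, Gstp1 and Gsto1, 5 of 10 members, and for 32.5% of 5732 genes averaging 10 FPKM or more. Without it, Gstm1 was at -0.00, Gstm5 at -0.14, Gstp1 at -0.12, Gsto1 at 0.02 and Gstt2 at 0.09 against control, while Gstm2 (-1.40) and Gstt3 (-0.80) kept their size.

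Whether Hdac1 loss moved the members on the 5XFAD background was tested in compound against 5XFAD mice. Of the 9 members tested, 1 was past both DEG thresholds, Mgst1, beside 1.28% of 14326 genes. Mgst1, a microsomal enzyme that also reduces lipid hydroperoxides, read 66.1, 38.5, 36.3, 59.8 and 34.9 FPKM in compound mice and 23.2, 24.7, 42.7, 22.1, 26.2 and 43.0 in 5XFAD mice. The ranges overlapped through the 2 highest 5XFAD mice, and all 5 compound mice were above the 5XFAD mean. The log2 difference was 0.62 (SE 0.22, limma p = 0.0156, exact two-sided permutation p = 0.0433), but its Benjamini-Hochberg adjusted p over all genes was 0.73, and only 0.00698% of genes, 1 in all, passed at 0.05. The call was lost without 5XFAD mouse 1 (0.56), 2 (0.58) or 4 (0.55) and without compound mouse 1 (0.49) or 4 (0.53), each of which left the fold under 1.5.

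Gstm2 showed no difference that could be told from the spread in this comparison, at -0.35 (SE 0.59), with a 95% interval from -1.65 to 0.96 and an exact permutation p of 0.571. The sign turned without compound mouse 3 (0.085) and with the choroid plexus score as a covariate (0.12), and the value was -0.94 with a pseudocount of 0.1. For the other 7 members tested the limma differences lay between -0.15 (Gstt2) and 0.17 (Gsto1), and their exact permutation p was 0.273 or more. The intervals were narrow for the abundant genes, from -0.16 to 0.27 for Gstm1 and from -0.19 to 0.36 for Gstm5, and wide for Gstt1 (-0.66 to 0.54) and Gstt2 (-0.83 to 0.54).

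The difference with 5XFAD on the Hdac1 cKO background was tested in compound against Hdac1 cKO mice, a comparison that shares the compound mice with the previous one. Here 5XFAD cannot be told apart from the age label or the block of sample numbers. Again 1 of 9 members tested was past the thresholds, beside 3.55% of 14195 genes, and it was Mgst1. Hdac1 cKO mice read 35.0, 28.4, 38.0, 31.7 and 18.0 FPKM, so that 2 of them reached the lower compound values, and the log2 difference was 0.62 (SE 0.23, limma p = 0.0191, exact permutation p = 0.0397). Its adjusted p was 0.34, while 1.49% of genes passed at 0.05. The call was lost without Hdac1 cKO mouse 5 (0.45), without compound mouse 1 (0.48) or 4 (0.52), and with the choroid plexus score as a covariate (0.57). In this comparison 8 of 10 microglia markers were past the thresholds upward and 0 of the 8 choroid plexus markers tested were past them in either direction. Of 9 astrocyte markers 2 were past them upward (median 0.23). The astrocyte scores were 6.00 to 6.33 in compound and 5.67 to 5.71 in Hdac1 cKO mice. In compound against 5XFAD mice 0 of 10 choroid plexus markers (median -1.09) and 0 of 10 microglia markers (median 0.30) were past the thresholds. There 1 of 9 astrocyte markers was past them upward (median 0.06). The astrocyte scores were 6.00 to 6.33 in compound mice and 5.82 to 5.99 in 5XFAD mice, without overlap. With the choroid plexus score as a covariate Mgst1 differed by 0.84 in this comparison with 5XFAD mice. Compound mouse 4, without which both calls were lost, had the highest sum of its group for microglia markers (1330 FPKM, against 679 to 1008) and oligodendrocyte markers (1967 FPKM, against 1197 to 1410). It was also the highest of its group for astrocyte markers (1328 FPKM, against 1183 to 1286.5). Both calls were also lost without compound mouse 1. The ependyma markers summed to 164 FPKM in compound mouse 1 and 123 in mouse 4, against 79.1 to 90.7 in the others. Hdac1 cKO mouse 5 had the lowest such sum of its group (60.9), whereas 5XFAD mouse 2, at 24.7 FPKM of Mgst1, had the highest of its group (137). The median difference of ependyma markers was 0.39 against Hdac1 cKO and -0.02 against 5XFAD mice. The part of these cell types in the Mgst1 values was not tested.

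Against control, whose mice read 34.0, 30.8, 38.0 and 55.9 FPKM, Mgst1 differed by -0.39 (SE 0.22) in Hdac1 cKO, by -0.40 (SE 0.22) in 5XFAD and by 0.23 (SE 0.23) in compound mice. With the choroid plexus covariate the last was 0.60 (SE 0.27) and past the thresholds. Its interaction estimate was 1.01 (SE 0.34), close in size to that of Gstt3, and that of Gstm2 was 0.94 with a wide SE of 0.75, while those of Gstm1, Gstm5, Gstt1, Gstt2, Gstp1, Gsta4 and Gsto1 lay between 0.05 and 0.21 with an SE of 0.15 to 0.46. Compound mouse 1 was the highest of its group for 6 of 10 members (Gstm2, Gstt3, Gstp1, Gsta4, Gsto1 and Mgst1), and for 22.1% of 5678 genes averaging 10 FPKM or more in that group.

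Gstt3 did not differ detectably between compound and Hdac1 cKO mice, at 0.12 (SE 0.17), with a 95% interval from -0.23 to 0.48 and an exact permutation p of 0.429. The other 7 members tested there lay between -0.24 (Gstt1) and 0.04 (Gstm1), with exact permutation p of 0.325 or more. Gstm2, not tested there, differed by -0.44 (SE 0.59).

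**Figure D4:**
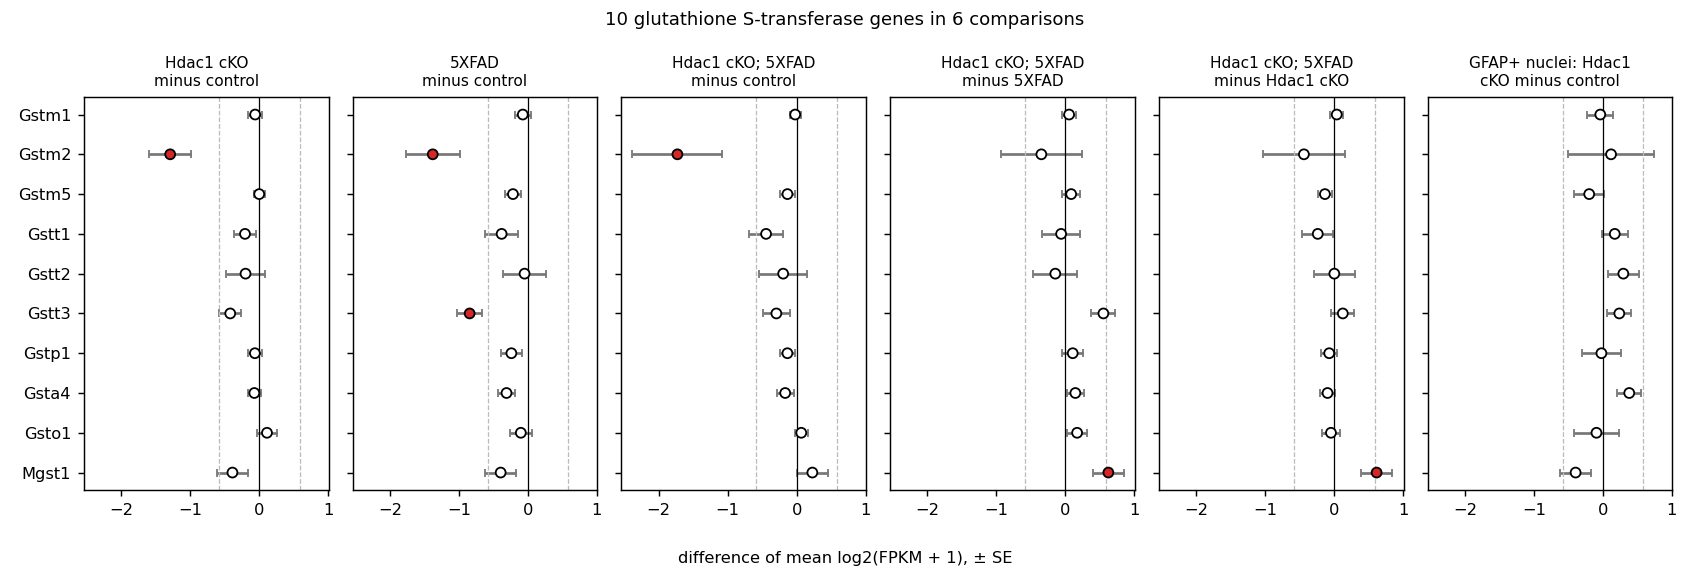
Difference of mean log2(FPKM + 1) with its SE for the 10 genes in 6 comparisons. Filled points are past both DEG thresholds and dashed lines mark a fold of 1.5. Gstm2 and Gstt3 stand out in the contrasts that chose them, and Mgst1 at 0.62 in both comparisons of compound mice with a single mutant.

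Group means of the abundant members lay close together in the 4 hippocampal groups. Gstm1 averaged 432, 417, 412 and 426 FPKM in control, Hdac1 cKO, 5XFAD and compound mice, a span smaller than the SD within any of these groups. Gstm5 averaged 672, 673, 584 and 617 FPKM. The pi class gene Gstp1 averaged 97.0, 93.2, 83.6 and 88.9 FPKM, and 80.6% of the 36-base stretches in the last 500 bases of its transcript also occur in its near copy Gstp2, so its value may hold reads of both genes. Gstp2 itself was listed at 0.25 FPKM in controls. Gsta4 averaged 136, 129, 110 and 122 FPKM. The 6 5XFAD values ran from 90.5 to 126, all below the control mean, with a log2 difference of -0.31 (SE 0.12). Gsto1, an omega class enzyme that reduces oxidized thiols, averaged 46.5, 51.0, 44.1 and 48.7 FPKM.

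The theta class genes Gstt1 and Gstt2 varied more from mouse to mouse. Gstt1 ranged from 15.1 to 24.6 FPKM in controls, 12.8 to 20.7 in Hdac1 cKO, 7.75 to 22.5 in 5XFAD and 9.50 to 22.5 in compound mice, with a log2 difference from control of -0.21, -0.38 and -0.44. Gstt2 ranged from 2.04 to 6.22, 1.47 to 3.67, 1.41 to 4.45 and 0.698 to 4.53 FPKM in the same order, on 2 to 36 fragments a mouse, and its coefficient of variation was 37.0 to 57.7%. Gstt3, in the same cluster and as low in level, had a coefficient of variation of 16.2 to 28.0%.

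In GFAP+ nuclei, where Hdac1 cKO was compared with control in libraries that the choice of members did not use, 0 of 10 members were past the DEG thresholds and 0 had an unadjusted limma p under 0.05, beside 2.58% of 15070 genes past the thresholds, 4.7% at that unadjusted p and 0.0133% at an adjusted p under 0.05. Gstt3 read 6.93, 7.87 and 6.96 FPKM in control nuclei and 7.45, 8.12, 9.85 and 9.66 in Hdac1 cKO nuclei. All 4 Hdac1 cKO values were above the control mean and 1 of them lay inside the control range, and the log2 difference was 0.24 (SE 0.18, 95% interval -0.15 to 0.63, exact permutation p = 0.114). With 3 against 4 libraries the smallest exact two-sided p is 0.0571.

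Gstm2 was listed at 1.44, 2.26 and 3.49 FPKM in control nuclei and at 3.92, 0, 3.90 and 5.79 in Hdac1 cKO nuclei. The 3 detected Hdac1 cKO values were above every control, but replicate 2 was at 0, and the log2 difference was 0.12 (SE 0.62, 95% interval -1.32 to 1.55, exact permutation p = 0.914). Without replicate 2 it was 0.73 and past both thresholds. Gsta4 read 19.9, 18.6 and 24.7 FPKM in control and 26.0, 23.4, 27.4 and 34.5 in Hdac1 cKO nuclei, a difference of 0.38 (SE 0.17, limma p = 0.0514, adjusted p = 0.98, exact permutation p = 0.114). Mgst1 read 79.9, 51.1 and 50.2 FPKM in control and 53.6, 35.3, 56.1 and 37.0 in Hdac1 cKO nuclei, where all 4 values were below the control mean, at -0.40 (SE 0.22, 95% interval -0.89 to 0.10, exact permutation p = 0.343). The other members differed by -0.20 (Gstm5) to 0.30 (Gstt2). Among the markers, 2 of 10 for choroid plexus were past the thresholds upward in Hdac1 cKO nuclei and 1 of 6 for endothelium downward, and 0 of 7 for oligodendrocytes in either direction (median -0.28). The part of these cells in the members' values was not tested.

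**Figure D5:**
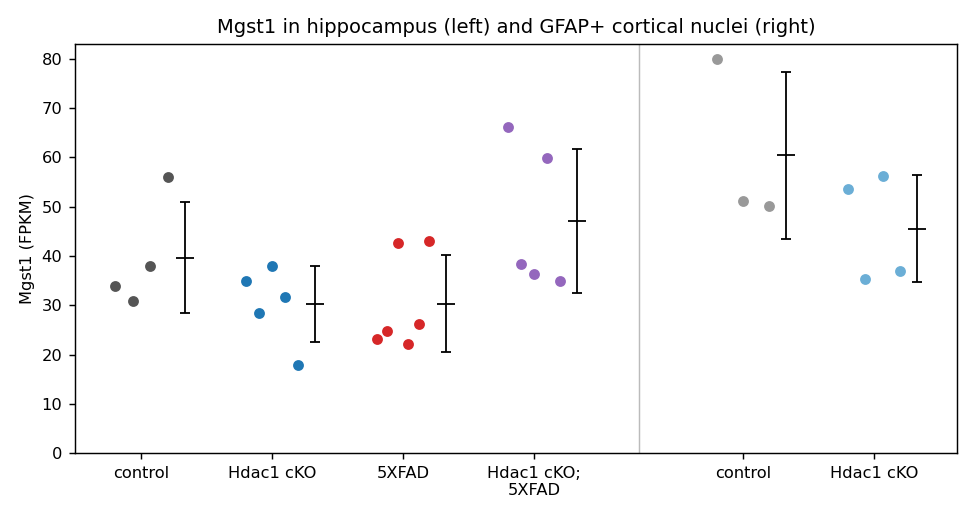
Mgst1 (FPKM) in each hippocampus (left) and each GFAP+ nuclei library (right), with the mean and SD of each group. Compound mice lie between 34.9 and 66.1 FPKM, 4 of 6 5XFAD mice between 22.1 and 26.2, and the nuclei groups overlap.

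Relatives were described from a list of 25 genes outside the members: other cytosolic, kappa class and fold-sharing proteins, and relatives of Mgst1 in its separate membrane-bound family (Mgst2, Mgst3, Alox5ap, Ltc4s and Ptges). In compound against 5XFAD mice 1 of 18 tested was past the thresholds upward and 0 downward, beside the 1.28% of all genes given above. In compound against Hdac1 cKO mice 2 of 19 were past them upward, with an adjusted p under 0.05 for both, and 0 downward, beside 3.55% of all genes past the thresholds and 1.49% at that adjusted p. In nuclei 0 of 20 were, beside 2.58% of all genes, with an unadjusted limma p under 0.05 for 2, beside 4.7%. The genes past the thresholds in these tests were Hpgds, a sigma class glutathione S-transferase that makes prostaglandin D2 in microglia and mast cells, and Clic1, a chloride channel protein with the glutathione S-transferase fold. Hpgds averaged 10.02 ± 2.75 FPKM (n = 5) in compound mice against 5.66 ± 1.00 (n = 6) in 5XFAD, a log2 difference of 0.70 (SE 0.17, limma adjusted p = 0.61), and against 4.74 ± 0.506 (n = 5) in Hdac1 cKO, a difference of 0.91 (SE 0.16, limma adjusted p = 0.0101) with no overlap of the groups. Clic1 averaged 6.86 ± 2.45 FPKM (n = 5) in compound against 2.19 ± 0.945 (n = 5) in Hdac1 cKO mice, a difference of 1.30 (SE 0.23, limma adjusted p = 0.0100), again without overlap. Control mice averaged 4.58 ± 1.62 FPKM of Clic1 (n = 4), and it was past the thresholds downward in Hdac1 cKO against control (-0.81, SE 0.25) and not past them in compound mice against control. Against control 0 of 18 tested were past the thresholds upward and 1 downward in Hdac1 cKO, 1 and 1 in 5XFAD, and 1 and 0 in compound mice, beside the shares of all genes given above for these contrasts. In 5XFAD these were Alox5ap, of the membrane-bound family, which serves leukotriene synthesis (0.87, SE 0.27), and the kappa class gene Gstk1 (-0.60, SE 0.19), and in compound mice Hpgds (0.96, SE 0.21), whose groups did not overlap. In both contrasts 8 of 10 microglia markers were past the thresholds upward. In compound against Hdac1 cKO mice 8 of 10 microglia markers were past the thresholds upward, with a median log2 difference of 1.32, while 0 of 10 were in compound against 5XFAD mice. In 5XFAD against control, where 8 of 10 were also past them, Hpgds (5.66 against 4.66 FPKM) and Clic1 (5.52 against 4.58) were not. The part of microglia in the Hpgds, Clic1 and Alox5ap values was not tested.

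Genes that make, recycle or export glutathione were read in the same fits. Of 36 listed genes of the pathway, from the ligase subunits Gclc and Gclm through glutathione reductase (Gsr) and the cystine transporter Slc7a11 to the Abcc exporters, 30 were tested in each hippocampal comparison and 32 in nuclei, and 0 were past the DEG thresholds in any of the 6 comparisons. This is close to the 1.28 to 4.24% of all genes past them, so nothing is read from it for the pathway, while an unadjusted limma p under 0.05 was reached by 2 to 4 of 30 in hippocampus and by 0 of 32 in nuclei. Of all genes tested, such a p was reached by 11.7% in Hdac1 cKO, 10.7% in 5XFAD and 10.5% in compound mice against control, by 6.61% in compound against 5XFAD mice, by 10.3% in compound against Hdac1 cKO mice and by 4.7% in nuclei. Their median log2 difference was between -0.03 and 0.04, beside -0.01 to -0.00 over all genes tested.

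The genes around the 2 clusters were read in the same fits. In and beside the mu cluster, 10 of 15 genes that are not members were tested. In Hdac1 cKO against control they ran from -0.36 to 0.46 and 0 were past the thresholds, beside 3.36% of all genes. Gstm2, chosen for its fall in this contrast, was at -1.29. Gstm1 and Gstm4, which flank Gstm2 on the side of higher coordinates, were at -0.06 and 0.08, and Gstm6, beyond the untested Gstm3 on its other side, was at 0.46. Csf1, the microglial growth factor gene, was past the thresholds upward in 5XFAD (0.80) and compound mice (0.74) against control and in compound against Hdac1 cKO mice (0.61). In and beside the theta cluster 9 of 11 such genes were tested in 5XFAD against control. They ran from -0.58 to 0.25, and 0 were past the thresholds, beside 2.95% of all genes. The nearest, Ddt, which lies 701 bases from Gstt3, was at -0.32, and Gstt1 at -0.38. Gstt3, chosen for its fall in this contrast, was at -0.85. Both counts of 0 are close to the shares of all genes, so nothing is read from them.

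The members were also compared within groups. Over the deviations of 20 hippocampal mice from their group means, 41 of the 45 pairs of members had a Pearson r above 0 (median 0.30), or 91.1%, and 3 of the 4 pairs below 0 held Gstm2. Over all pairs of 11234 genes averaging 2 FPKM or more, 50.1% had an r above 0, with a median of 0.00. The highest r was 0.77 for Gstm1 and Gsto1, and the lowest -0.20 for Gstm1 and Gstm2, which are cluster neighbours. Gstt3 and Mgst1 had an r of 0.55. Among these 11234 genes, those most like Gstm2 by this measure were Sdc2 (0.78), Col4a1 (0.77), Ccdc71 (0.76), Pllp (0.74) and Stk39 (0.73). Those most like Gstt3 were Gyk (0.85), Ankrd37 (0.83), Armc8 (0.83), Gpr37 (0.82) and Fdx1 (0.80). These are descriptions of the same 20 libraries, whose depth and dissection enter both measures.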

How the data were processed

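RNA-seq was analysed from 20 hippocampi and 7 GFAP+ nuclei libraries. Per the paper's methods, the authors made hippocampal libraries by 3′ digital gene expression and nuclei libraries with a full-length kit, aligned collapsed reads with Tophat2 and obtained FPKM per gene with Cufflinks 2.0.0 on UCSC mm9. The deposited FPKM files, one a sample, were used as given. Depth is not given in them. Sums of FPKM were 725060 to 881139 in hippocampus and 465218 to 525685 in nuclei.

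Groups came from the labels. FPKM were taken as log2(FPKM + 1) and compared in pairs of groups with limma 3.58.1 (trend and robust, R 4.3.3) over genes averaging 0.5 FPKM or more, with Benjamini-Hochberg adjustment over all genes tested. Fold changes on this scale understate low genes. Single members were also tested by exact two-sided permutation (scipy 1.17.1). p-values measure the spread between mice, and for nuclei between libraries. The code was tested on simulated data. Gene models and sequences were read from NCBIM37 and GENCODE vM1. Whole fragments were sought as described in the text, and no count model was used.

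All 10 members were named in every group. Genes of the relatives and pathway lists were named where past the thresholds in a tested comparison, the cluster neighbours were the 5 listed genes nearest on each side, and the genes most like Gstm2 and Gstt3 were the top 5. Members and lists were chosen with earlier results of these data known. Alox5ap, Csf1, Ddt, Gstk1, Gstm4, Gstm6 and Gstp2 were singled out after their values were seen. Alternatives were the pseudocount (0.1), filters (none, 1 FPKM), quantile and median scaling, limma without trend and robust, the ratio of mean FPKM, a replicate block, 1 fit over all hippocampal groups, a choroid plexus covariate and leaving out each replicate. 1 control nuclei sample was not analysed here.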

Additional observations from a re-analysis of the deposited data

Results flagged for a closer look

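The value of 1 mouse lay far from the rest of its group in 2 of the 50 groups of values examined. How often chance alone gives such a value was not measured. Gstm5 read 466 FPKM in compound mouse 4, below the 633 to 684 of the other compound mice, and Gsto1 read 56.1 FPKM in compound mouse 1, above the 46.1 to 48.2 of the others.

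3 effects had opposite signs in every sample of 2 settings, and the difference itself was not tested. Gstt3 was below the control mean in all 5 Hdac1 cKO mice and above the 5XFAD mean in all 5 compound mice, and the effects of Hdac1 loss differed by 0.97 on the log2 scale. Mgst1 had the same pattern, with a difference of 1.01. Gstt3 was chosen because it was lower in 5XFAD than in these controls, so its pattern draws on the values that chose it. The same control hippocampi enter all 3 effects. In GFAP+ nuclei Gstt3 was above the control mean in all 4 Hdac1 cKO libraries, unlike in hippocampus, and the effects differed by 0.66. The hippocampal mice and the nuclei also differed in region and library kit.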

How the results depend on the processing

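In compound against 5XFAD mice the count of 9 members past the thresholds was 1 under every alternative other than left-out mice, and ran from 0 to 1 when single mice were left out. Against Hdac1 cKO it was 1, or 0 with the choroid plexus covariate and again 0 to 1 over left-out mice. The Mgst1 difference stayed above 0 under every alternative. It was 0.49 to 0.73 in the first comparison and 0.45 to 0.71 in the second with a mouse left out, and fell under a fold of 1.5 in the second with the covariate (0.57), which raised it to 0.84 in the first, and the cause was not tested. Its adjusted p ran from 0.355 to 0.903 in the first and from 0.136 to 0.531 in the second. The Gstm2 difference between compound and 5XFAD mice, -0.35, reversed to 0.12 with the covariate, was -0.94 with a pseudocount of 0.1 and -0.089 as a ratio of mean FPKM, and ran from -0.76 to 0.085 over left-out mice. That of Gstt3 between compound and Hdac1 cKO mice ran from 0.03 to 0.24 over all alternatives. Descriptively, Gstm2 in Hdac1 cKO against control stayed between -1.51 and -1.08, and Gstt3 in 5XFAD moved from -0.85 to -1.17 with a pseudocount of 0.1 and to -1.16 as a ratio of means, since adding 1 understates a gene this low.

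No pairing of samples by replicate number was detected: the deviations of same-numbered samples correlated between -0.11 and 0.08 over the 6 comparisons. In each comparison 0 to 2 samples were most like the one of their own number. This does not exclude a weaker link. With a replicate block the nuclei count moved from 0 to 1 of 10, Gstm2, as control replicate 2 was not analysed here and the block therefore sets aside Hdac1 cKO replicate 2, the library listed at 0. Leaving that library out gave the same count, 0 to 1 over left-out libraries. The block left the count at 1 of 9 members in compound mice against 5XFAD and against Hdac1 cKO. Among the descriptions, it took Gstm2 in compound mice against control out of the thresholds (-1.53) and brought Gstt3 in compound against 5XFAD mice past them (0.61). Depth limits Gstm2, Gstt2 and Gstt3, which rested on at most 69 fragments a mouse.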
